A study of Astragalus chrysochlorus with 2 samples.

Results

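Albumin-2 is one of the major albumins that legumes lay down in the cotyledons of their seeds. It folds as a propeller of hemopexin-type repeats, and in grass pea an albumin of this kind has been shown to bind the polyamine spermine and heme. It is known best from developing and mature seeds, while callus is a mass of dividing, undifferentiated cells kept in culture. Of the 82566 unigenes (assembled transcript sequences) in the table of A. chrysochlorus callus, 4 were named albumin-2. They are CL10154.Contig1_All (959 nt), CL8031.Contig1_All (880 nt), Unigene7656_All (900.0 nt) and Unigene33520_All (561 nt). The ending _All, common to every identifier, is left out from here on. Blast names were available here for 972 unigenes, those annotated ones that the study listed because their log2 ratio between the libraries was beyond 2 in either direction at a false discovery rate it set. The study annotated many more unigenes, and their names were not analysed here. The difference between the libraries therefore took part in choosing these members, and their ratios are given below as a description, with no test.

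The study compared 1 library of control callus with 1 library of Se-treated callus of the same species. Both kinds of callus grew on MS medium with 0.5 mg/L of the synthetic auxin 2,4-D. The Se-treated callus also received 5 mg/L sodium selenate, an oxidized selenium salt that enters plant cells by way of sulfate transporters, for 3 weeks from an age of 21 days. The callus came from a long-term culture, each treatment was carried out 3 times in 5 dishes of 9 callus tissues, and whether these were pooled for the library is not given in the sources used here. Both libraries held 16.7 M mapped fragments. Without replicate libraries the spread between cultures is unknown for every difference given here. The intervals are exact at the 95% level for independent counts and describe counting error alone. Sequenced fragments are not independent molecules, so the intervals can be too narrow even for that. In whole callus, fewer cells that express a gene and less RNA per cell cannot be told apart.

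All 4 albumin-2 unigenes had fewer fragments in the Se-treated library. Lower levels after selenate were also found for 52.2% of all unigenes and for 31.8% of the 972 listed ones. The 4 were chosen with earlier results of these data known, so nothing is read from their common direction. The fragments of the 4 summed to 599 in control callus and 77 in Se-treated callus. The summed log2 ratio of Se-treated over control was -2.96 (95% counting interval -3.32 to -2.61), or a level 7.77-fold lower. Expressed as FPKM (fragments per kilobase of unigene, scaled to the total of the library), the 4 levels summed to 40.5 in control and 5.28 in Se-treated callus.

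CL10154.Contig1 was the most abundant albumin-2 unigene in both libraries. A total of 274 fragments were counted in control callus and 39 in Se-treated callus, that is an FPKM of 17.1 (15.1 to 19.2) and 2.43 (1.73 to 3.33). Its log2 ratio was -2.81 (-3.33 to -2.32), which is 7.01-fold lower. In the control its FPKM was above that of 89.7% of all unigenes, and in the Se-treated library above that of 51.1%. The transcript thus stood in the upper range of the control callus and near the middle of the Se-treated callus.

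CL8031.Contig1 had nearly the same log2 ratio from a lower level. Control callus gave 163 fragments of it and Se-treated callus 23, with an FPKM of 11.1 (9.44 to 12.9) and 1.56 (0.992 to 2.35). The log2 ratio was -2.82 (-3.52 to -2.19), or 7.08-fold lower. Its FPKM was above that of 85.3% of the unigenes in the control, but of only 37.7% after selenate.

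Unigene7656 had the largest difference of the 4. Its fragments numbered 122 in control callus and only 8 after selenate, which gave an FPKM of 8.10 (6.73 to 9.67) and 0.532 (0.230 to 1.05). The log2 ratio of -3.93 (-5.17 to -2.90) corresponds to a level 15.2-fold lower, and with so few Se-treated fragments the interval of that fold ran from 7.49 to 36.1. By FPKM it ranked at position 15489 of all unigenes in the control and at position 66026 in the Se-treated library.

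Unigene33520 was the shortest and the least abundant in the control. The control gave 40 fragments and the Se-treated callus 7, an FPKM of 4.26 (3.04 to 5.80) and 0.747 (0.300 to 1.54). Its log2 ratio was -2.51 (-3.92 to -1.34), so its interval reached above the threshold of -2 for being listed with a name. The intervals of the other 3 lay wholly below that threshold. The share of all unigenes with such an interval was not counted. As the members were listed by this ratio, nothing is read from the 3.

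**Figure D1:**
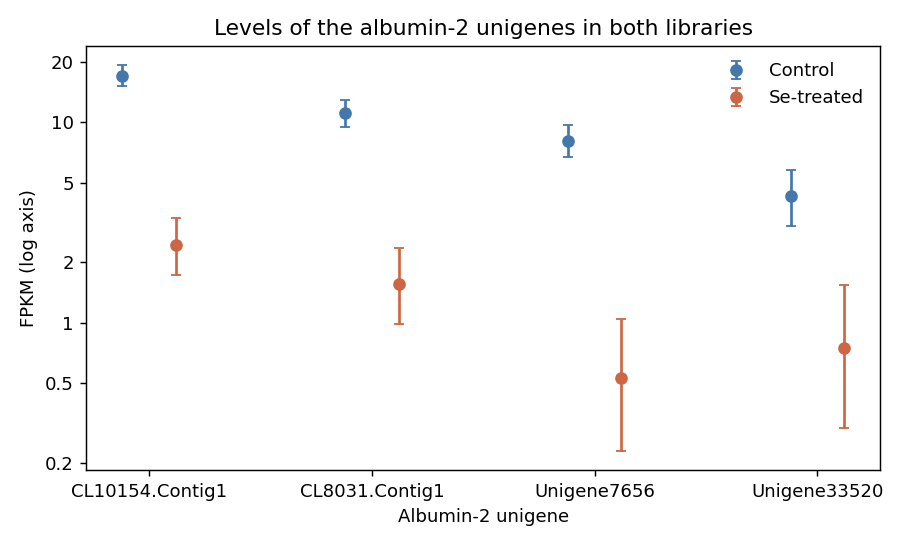
FPKM (log axis) of the 4 albumin-2 unigenes in the Control (blue) and Se-treated (orange) library, with exact 95% Poisson intervals that cover counting error only (1 library per condition). For each unigene the control interval lies above the Se-treated one, from 15.1 to 19.2 against 1.73 to 3.33 for CL10154.Contig1 and from 3.04 to 5.80 against 0.300 to 1.54 for Unigene33520. The 4 were listed for their difference between these libraries, so nothing is read from this separation. Its share among all unigenes was not counted.

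A log2 ratio of -2 or less was found in 4107 of the 82566 unigenes (4.97%), and in 1.15% of the 40396 unigenes with at least 47 fragments over both libraries, the smallest total among the 4. Since only annotated unigenes past this threshold were listed with their names, nothing is read from the count of the 4. Their median log2 ratio was -2.82, beside -0.09 over all unigenes. As each of the 4 had to be past the threshold to be named, nothing is read from this gap either. Of the 4, Unigene33520 lay closest to the threshold, and the listed unigene of any kind nearest to it on the lower side was 0.0034 beyond it. Names of unigenes that did not reach the threshold were not analysed here, so albumin-2 transcripts that differed less could not be counted, and the 4 are not a census of the family in this plant.

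**Figure D2:**
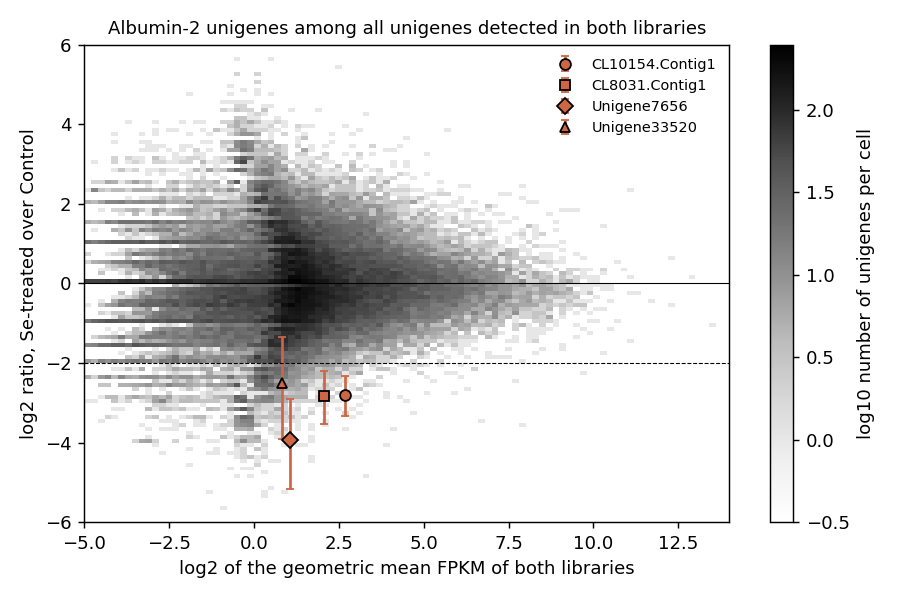
Log2 ratio of Se-treated over Control against the log2 geometric mean FPKM of both libraries. Grey cells hold 79877 of the 80074 unigenes detected in both libraries (darker cells hold more), coloured symbols are the 4 albumin-2 unigenes with exact 95% counting intervals, and the dashed line is a log2 ratio of -2. The 4 lie between -2.51 and -3.93, all under the dashed line, and the interval of Unigene33520 crosses it.

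In the control library the order of the levels per length was CL10154.Contig1, CL8031.Contig1, Unigene7656 and Unigene33520. Each step in this order was larger than counting error. The FPKM of CL10154.Contig1 was 1.54 times (1.27 to 1.88) that of CL8031.Contig1, which was 1.37 times (1.07 to 1.74) that of Unigene7656. Unigene7656 in turn was 1.90 times (1.32 to 2.79) as high as Unigene33520. In the Se-treated library the last places were exchanged, with Unigene33520 at 1.40 times the FPKM of Unigene7656, but the interval of this ratio (0.433 to 4.43) held 1. So did the intervals of the other steps there, 1.56 times (0.906 to 2.73) from CL10154.Contig1 to CL8031.Contig1 and 2.09 times (0.870 to 5.78) from CL8031.Contig1 to Unigene33520. The few albumin-2 fragments of the Se-treated library, 77 against 599 in the control, did not separate neighbours in the order.

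For each member the counting intervals of its share of the albumin-2 fragments overlapped between the libraries. CL10154.Contig1 gave 45.7% (Clopper-Pearson interval 41.7 to 49.8) of the 599 fragments in the control and 50.6% (39.0 to 62.2) of the 77 in the Se-treated library. CL8031.Contig1 gave 27.2% (23.7 to 31.0) and 29.9% (19.97 to 41.4). The share of Unigene7656 was 20.4% (17.2 to 23.8) in control callus and 10.4% (4.59 to 19.4) after selenate, and that of Unigene33520 was 6.68% (4.81 to 8.98) and 9.09% (3.73 to 17.8). Unigene7656 was the one member with a smaller share in the Se-treated library. Overlap of separate intervals does not show that shares were equal, and the shares of the libraries were not compared directly. With length taken into account, as shares of the summed FPKM, the short Unigene33520 had 10.5% in control callus and 14.2% after selenate.

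**Figure D3:**
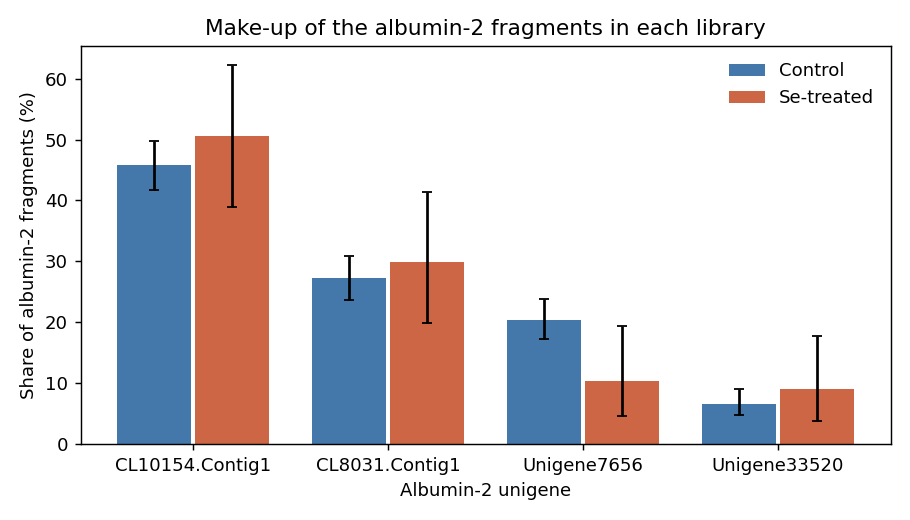
Share of each unigene in the albumin-2 fragments (percent) of the Control (blue, 599 fragments) and the Se-treated library (orange, 77 fragments), with Clopper-Pearson 95% intervals. CL10154.Contig1 held the largest share in both, 45.7% and 50.6%. The intervals of the 2 libraries overlap for every unigene, which does not show that the shares were equal.

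The log2 ratios of the 4 spanned 1.42. Of the 6 pairs of members, 0 had an interval of the difference that left out 0. The widest gap was that between Unigene7656 and Unigene33520, at -1.42 (-3.17 to 0.38), and CL10154.Contig1 exceeded Unigene7656 by 1.12 (-0.06 to 2.47). CL10154.Contig1 and CL8031.Contig1 differed by 0.01 (-0.82 to 0.88). These intervals are wide, and a difference between members within their bounds was not detectable with these counts. Each of the 4 also had to pass the threshold of -2 to be named. Members with smaller differences are therefore missing, and nothing is read from the likeness of the 4 ratios.

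All 4 names were matches to albumin-2 of Medicago truncatula, a related legume. The 4 unigenes matched 3 Medicago protein entries, because Unigene7656 and Unigene33520 had the same entry as their best match, while CL10154.Contig1 and CL8031.Contig1 had one each. Whether Unigene7656 and Unigene33520 are pieces of 1 transcript or separate genes was not tested, since their sequences were not analysed here. Their sum was 162 fragments in control and 15 in Se-treated callus, with a log2 ratio of -3.43 (-4.30 to -2.67). Near-identical members of a family can share reads, and the authors' mapping placed each read once, so the split of fragments among the 4 is less certain than their sum.

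The prefix CL marks a cluster of similar contigs. CL10154.Contig1 was the single contig of its cluster in the table, as in 9.26% of the 10227 clusters. The cluster CL8031 had 3 contigs, and the other 2, which were not listed with a name, were not chosen by the rule. CL8031.Contig2 (363 nt) had 20 fragments in control callus and none were counted after selenate (0), which is at least 6.66-fold lower when the 0 is set to a floor of 3 fragments. CL8031.Contig3 (319 nt) had 7 and 0, at least 2.33-fold lower with that floor. This floor equals an FPKM of 0.495 for CL8031.Contig2 and 0.563 for CL8031.Contig3, and the exact upper bounds for a count of 0 were 0.608 and 0.692. Both short contigs thus lay on the same side as CL8031.Contig1. Similar contigs can share reads, so they are not independent of CL8031.Contig1. Whether they are parts of the same transcript was not tested. With all 3 contigs summed, the cluster had 190 and 23 fragments and a log2 ratio of -3.04 (-3.74 to -2.42). Among the 44091 unigenes of the table with at least 20 fragments in the control, 25 had 0 in the Se-treated library, and CL8031.Contig2 was one of them. With 7 or more in the control, as in CL8031.Contig3, 258 unigenes had 0 in the Se-treated library. How many unigenes had 7 or more in the control was not counted, so no share is given and nothing is read from this number.

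**Figure D4:**
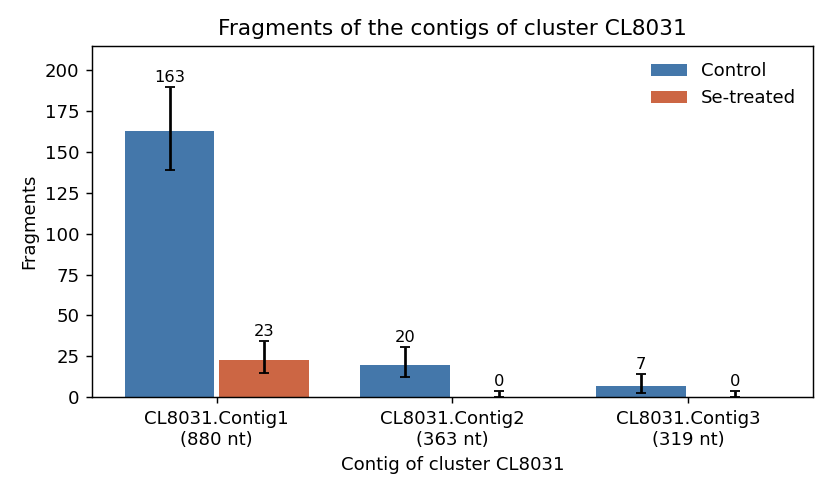
Fragments of the 3 contigs of cluster CL8031 in the Control (blue) and Se-treated (orange) library, with exact 95% Poisson intervals. The counts, printed above the bars, were 163 and 23 for CL8031.Contig1, 20 and 0 for CL8031.Contig2 and 7 and 0 for CL8031.Contig3.

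The numbers of the unclustered unigenes went with their direction. In the range from 33000 up to 34000, where Unigene33520 lies, 91.6% of 999 unigenes had a log2 ratio below 0 and 29.9% had -2 or less. Among the 29954 unigenes numbered under 30000, where Unigene7656 lies, these shares were 53.8% and 1.25%. In the bins of 1000 numbers from 39000 on the share below 0 was between 1.5% and 24.9%, and over all unigenes it was 52.2%. The part of this numbering in the ratio of Unigene33520 was not tested. Unigene7656 lay outside that range, while CL10154.Contig1 and CL8031.Contig1, as contigs of clusters, carry no such number. Without Unigene33520 the summed log2 ratio was -3.00, a sum of members that had each passed the threshold of -2.

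**Figure D5:**
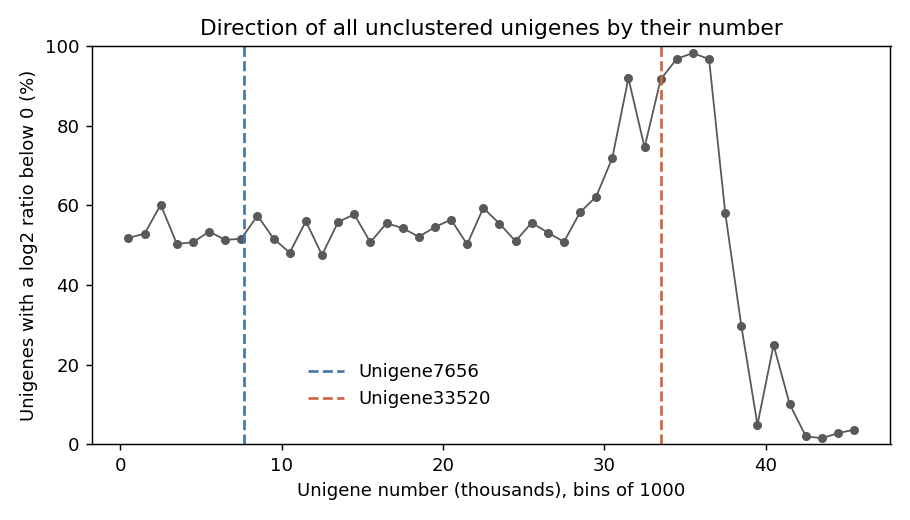
Percent of unclustered unigenes with a log2 ratio below 0 (lower in the Se-treated library) in bins of 1000 unigene numbers, with the positions of Unigene7656 (blue) and Unigene33520 (orange). The bin of Unigene33520 stands at 91.6% and that of Unigene7656 at 51.6%.

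In a list of 4 other named proteins of seeds, reserves and the hemopexin fold, selenate callus had more of 2 and less of 2. The members of this list and of those below were taken from the same 972 listed unigenes, so all had to differ. Of those 972, 663 (68.2%) were higher and 309 (31.8%) lower, while 5.31% of all unigenes had a log2 ratio of 2 or more, so that nothing is read from the split of a list. A lectin-related polypeptide (CL3085.Contig1), matched to Robinia and of the legume lectin family, carbohydrate-binding proteins stored in seeds and bark, gave 106 and 22 fragments and a log2 ratio of -2.27 (-3.00 to -1.59). A patatin (CL7618.Contig2), of the family of potato tuber storage proteins with lipid hydrolase activity, had 517 and 127 fragments and -2.02 (-2.31 to -1.74), and its cluster of 4 contigs had -1.44. On the higher side was the embryonic abundant protein USP92 (Unigene8120), of a legume seed protein family with a BURP domain, with 329 and 1599 fragments and a log2 ratio of 2.28 (2.11 to 2.46). Its FPKM of 19.1 in the control was close to the 17.1 of CL10154.Contig1, whereas in the Se-treated library the FPKM were 93.0 and 2.43.

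A unigene named only hemopexin (CL4459.Contig2), the repeat from which albumin-2 is built, went opposite to the 4. Fragments of it numbered 9 in control and 36 in Se-treated callus, with a log2 ratio of 2.002 (0.92 to 3.24). Its cluster of 2 contigs had 217 and 387 fragments and a log2 ratio of 0.84. Hemopexin repeats also occur in proteins other than albumin-2, and the name does not say which protein this is.

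A list of vacuolar sorting held 3 named unigenes, and whether albumin-2 takes that route was not examined here. The Se-treated library was higher in 2 of these and lower in 1. CL2626.Contig4 had 9 and 49 fragments (log2 ratio 2.45), Unigene40656 had 10 and 50 (2.32), and a VPS35-like protein (Unigene30847), part of the complex that recycles sorting receptors, had 15 and 0, at least 4.99-fold lower with the floor of 3 fragments. Both of the unclustered ones lie in bins of numbers with a leading direction, 24.9% below 0 around Unigene40656 and 71.9% around Unigene30847. In polyamine synthesis the 1 named unigene was an arginine decarboxylase (CL7665.Contig2, 241 nt), an enzyme at the start of the pathway to spermine. It had 13 and 59 fragments and a log2 ratio of 2.18, but its cluster of 2 contigs had 5511 and 3633 fragments and -0.60, the opposite direction.

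Small seed and defence proteins were few. A serine protease inhibitor (CL9430.Contig2) gave 32 and 5 fragments and a log2 ratio of -2.68 (-4.39 to -1.31), while its cluster of 2 contigs had -0.92. The lipid transfer proteins, which bind and carry lipids, were on the higher side. Unigene18674 had 12 and 53 fragments (2.15), and CL4004.Contig1 had 7 and 39 (2.48) with 0.77 in its cluster of 3 contigs. Over the 4 lists, 7 of the 11 unigenes were higher and 4 lower, beside 68.2% higher among all listed unigenes.

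The named unigenes whose levels were most like those of each albumin-2 member were found by the distance between log2 FPKM values over the 2 libraries, among 919 named unigenes detected in both. With only 2 libraries, this likeness rests on 2 values a unigene. Nearest to CL10154.Contig1 was a receptor-like protein kinase (CL4877.Contig1), with FPKM values of 16.9 and 2.53 and a distance of 0.06, followed by a phenylalanine ammonia-lyase (Unigene31527, 15.4 and 2.74), the entry enzyme of phenylpropanoid synthesis. Nearest to CL8031.Contig1 was an amino acid permease 3-like transporter (Unigene9838), with an FPKM of 11.6 and 1.64 and a distance of 0.10. The second was Unigene9530, matched to an Arabidopsis protein known only by a clone name (9.94 and 1.62).

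The named unigenes nearest to Unigene7656 lay at distances of 0.37 and 0.39. They were an acid beta-fructofuranosidase (Unigene31405, an FPKM of 6.62 and 0.454), which splits sucrose, and a glycoside hydrolase of family 17 (Unigene32022, 8.48 and 0.695). Both Se-treated values lay within the counting interval of Unigene7656 there (0.230 to 1.05), so nothing is read from its larger distances. In the bins of numbers around Unigene31527 and Unigene31405 91.9% of unigenes had a log2 ratio below 0, and 74.5% around Unigene32022. Unigene33520 lay at a distance of 0.03 from a CCCH zinc finger protein (Unigene33690, 4.18 and 0.748) and of 0.06 from a receptor-like kinase (Unigene33239, 4.18 and 0.721). Both of these lie in the same range of numbers as Unigene33520.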

How the data were processed

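Control and Se-treated callus of A. chrysochlorus gave 1 RNA library each. The authors removed low-quality reads, assembled unigenes with Trinity, TGICL and Phrap, took protein names from Blast, and aligned reads to unigenes by SOAP, set to 1 hit per read. The deposited table gives whole fragment counts per unigene, not normalized, and unigene lengths. The deposited FPKM values of 1 or more are stored 10000 times too large (all 59159 of the control and all 58553 after selenate), so FPKM was computed from the counts. The table's columns of direction, P-value and FDR hold the authors' own comparison and were not used. All columns of sample values could be mapped.

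The log2 ratio is that of Se-treated over control FPKM, with 0 replaced by 0.001. Intervals of counts are exact Poisson, and those of ratios and shares exact binomial, at 95%. Those of differences between members are conditional on the margins. Ratios and intervals were checked on simulated Poisson counts, for which exact intervals hold their level by construction. That setting had no spread between cultures and no dependence between fragments, so it says nothing about either. No test was run, because each condition had 1 library and the members were chosen on this contrast. The members and lists were chosen with earlier results of these data known. The text names the 4 members, the contigs of their clusters, 4 lists formed from the 972 names and, for each member, the 2 nearest named unigenes. Alternatives were pseudocounts, library sizes (TMM of edgeR 4.0.16, median of ratios), filters, thresholds and summing. Computation used Python 3.11.15 with scipy 1.17.1, pandas 2.3.3 and numpy 2.4.6, and plots matplotlib 3.10.9.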

Additional observations from a re-analysis of the deposited data

How the results depend on the processing

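The summed log2 ratio of the albumin-2 unigenes stayed between -3.09 and -2.74 over the pseudocounts, the library sizes, the sum of FPKM and the sums without each unigene in turn. That of Unigene7656 was -2.57 with 1 FPKM added to both libraries, outside its counting interval. Unigene33520 then had -1.59, so 3 of the 4 passed -2, and 3 did by the upper bound of the interval. The share of all unigenes that pass by the upper bound was not counted. Of 74 alternative values, 67 kept within their interval or within 1.5 times the count, 7 moved and 0 were reversed. Some of these could not move, since cluster CL10154 repeats its single contig and members past -2 are also past -1. The changes of library size shifted every ratio alike, so the tally is not a measure of robustness. The unigenes of the table with a log2 ratio of -2 or less numbered 2316 with 0.1 FPKM added, 264 with 1 FPKM added, 2339 with at least 10 fragments over both libraries, 435 with at least 50, and 14230 at a threshold of -1. The share of Unigene33520 in the control was 10.5% of the summed FPKM against 6.68% of the fragments, because it is the shortest. The share by FPKM and the scaling of the cluster ratios were chosen after seeing the data. No paired analysis was possible because each condition had 1 library. Without replicate libraries no setting addresses the spread between cultures, and the Se-treated counts of 7 and 8 fragments for Unigene33520 and Unigene7656 leave wide intervals.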
